A study of Danio rerio with 16 samples.

Results

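Glycolytic enzymes and glucose transporters of the zebrafish embryo were followed after an injection of insulin. The set was given as 33 gene symbols, and a gene belonged to it when the symbol of its row equalled 1 of them. Of these symbols, 29 matched 30 rows of the 31452 genes counted, because pgam1a named 2 rows. pfkla, pfklb, pklr and slc2a3b matched no row by symbol, so no row was analysed under these symbols. Rows labelled PFKL are given further below, apart from the set. All 30 rows passed the filter on low counts, which kept 21650 genes.

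Each library was made from 10 pooled whole embryos, ABTL in genetic background and 4 days old counted from fertilization. The groups were insulin at 0.5 hours post injection (hpi), PBS at 0.5 hpi, insulin at 4 hpi and PBS at 4 hpi, with 4 libraries each. Insulin was human recombinant insulin, and 1 nl of it, or of PBS as the control, had been put into the caudal aorta. Both groups of a time point therefore carried the wound and the volume of an injection, and no uninjected group was part of the comparisons. The labels say that libraries of a group are replicates and that each was a pool, but not whether pools came from separate crosses or days, so p-values measure the spread between these libraries.

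Glycolysis breaks glucose down to pyruvate in the cytosol. Facilitative transporters of the SLC2 (GLUT) family let glucose into the cell, the upper reactions spend ATP to make triose phosphates, the lower reactions regain ATP and NADH, and lactate dehydrogenase exchanges pyruvate and lactate. Teleost fish kept duplicates of many of these enzymes, which the suffixes a and b mark. In mammals insulin raises glucose uptake in muscle and fat largely by moving transporters to the cell surface, a step that transcript counts do not measure.

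Library totals were 6535173 to 9628705 counts, and the 30 rows together took 0.768% to 0.981% of them. Both wdr90 and si:dkey-15h8.1 were under 10 CPM (counts scaled to library size) in 4 libraries, which stand apart from the 12 others. They are insulin replicates 1 and 2 and PBS replicate 1 of the early time, and insulin replicate 1 of the late time. PBS replicates 2 and 3 at 0.5 hpi differed beyond counting error at 80 of 20521 genes, against 747 to 9549 genes for the other pairs of replicates, so they may not be independent pools. They were counted as 2 libraries. RNA came from whole embryos, so fewer cells of a type and less RNA per cell cannot be told apart in any value below.

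At 4 hpi insulin embryos had more transcript of 6 glycolytic enzyme genes and less of 1 glucose transporter gene. The enzymes were aldoca and tpi1b of the upper reactions, gapdh, pgam2 and eno3 of the lower reactions, and the lactate dehydrogenase ldhba. The transporter was slc2a1b. The changes were modest, between 0.29 and 0.59 on the log2 scale for the enzymes and -0.45 for slc2a1b. In all 7 of 30 rows (23.3%) passed at an adjusted p under 0.05 (edgeR's quasi-likelihood test, Benjamini-Hochberg over all genes tested), against a background of 28.6% of all genes. The 6 higher rows stood against 14% of all genes higher, and the 1 lower row against 14.6% lower. The share that passed was thus not above that of all genes. At an unadjusted p under 0.05 there were 10 of 30 rows, against 41.1% of all genes. The median log2 change of the 30 rows was 0.147, with 25 above 0, and that of all genes was 0.0147. How many of all genes were above 0 was not counted. The 30 rows summed to 10824 CPM in insulin replicate 1, a library that stands apart. The sums were 8354 to 9257 CPM in the other insulin libraries at 4 hpi and 7365 to 8117 CPM in PBS libraries.

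**Figure D1:**
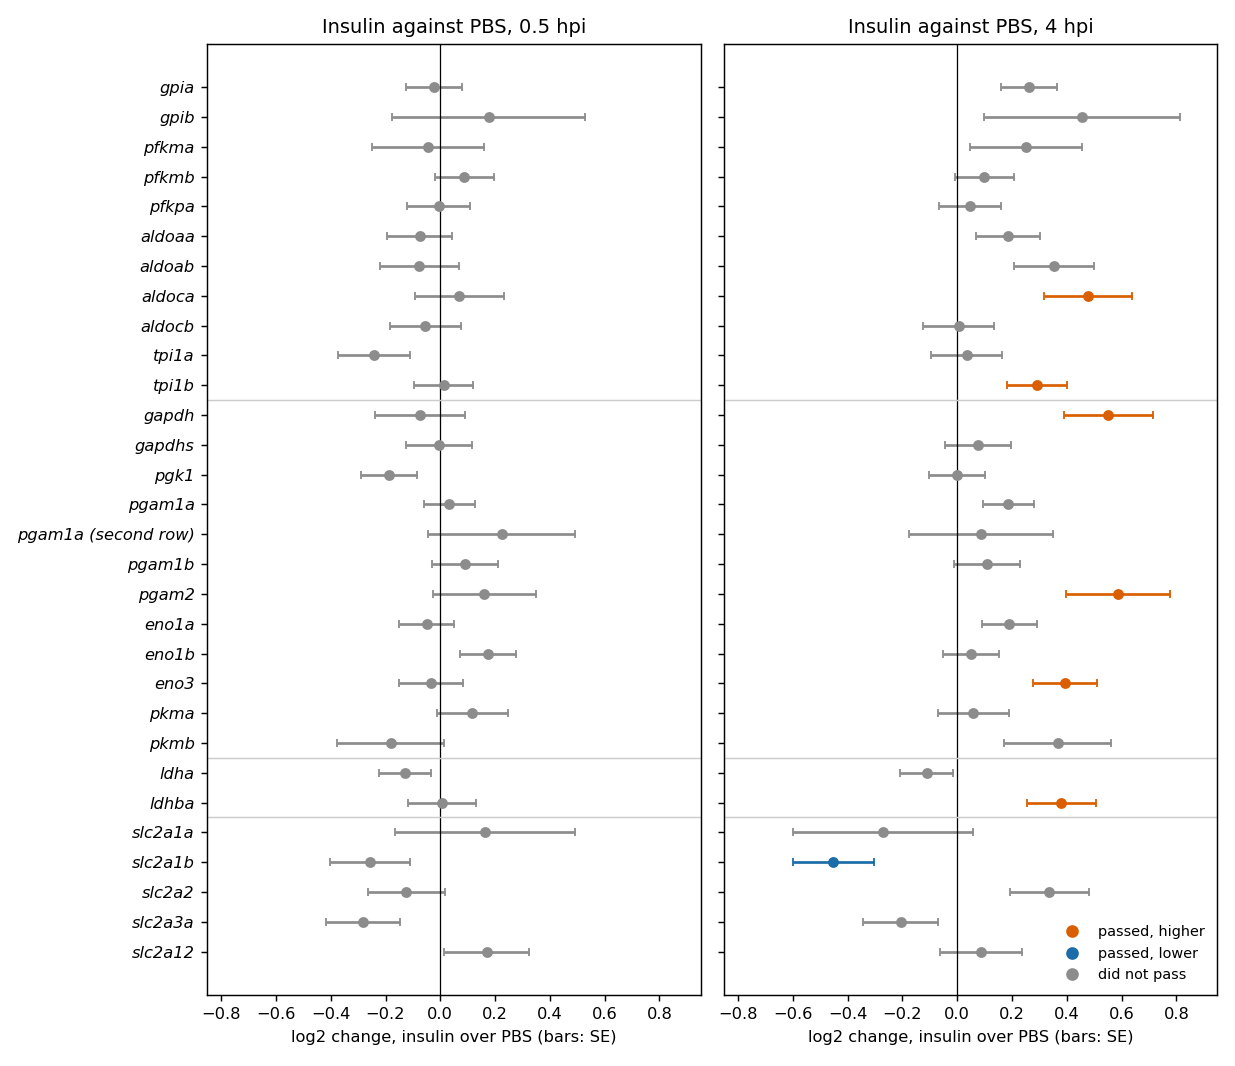
Log2 change of insulin over PBS for the 30 rows at 0.5 hpi (left) and 4 hpi (right), with bars of 1 standard error (SE) of the model. Grey lines part the upper reactions, the lower reactions, lactate dehydrogenases and transporters. At 4 hpi 6 enzyme rows passed above 0 and slc2a1b passed below it, while at 0.5 hpi no row passed.

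gapdh (ENSDARG00000043457, chromosome 16) encodes glyceraldehyde-3-phosphate dehydrogenase, which makes the first NADH of the pathway. Insulin libraries at 4 hpi held 1612, 919, 994 and 1204 CPM of it, in the order of replicates 1 to 4, against 718, 826, 838 and 843 CPM in PBS libraries at 4 hpi. Every insulin library lay above every PBS library, and insulin replicate 1 was the highest. The means were 1182 ± 311 CPM in insulin and 806 ± 59.3 CPM in PBS (SD, n = 4 each), a log2 change of 0.55 (SE 0.16, edgeR adjusted p = 0.0166). Without insulin replicate 1 the change was 0.37 with an adjusted p of 0.0698.

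pgam2 (ENSDARG00000057571, chromosome 21) encodes the phosphoglycerate mutase that in mammals is the muscle form. It was at 233, 131, 129 and 171 CPM in insulin libraries at 4 hpi and at 109, 115, 114 and 104 CPM in PBS libraries. The groups did not overlap, with insulin replicates 2 and 3 nearest to PBS. Its log2 change was 0.59 (SE 0.19, edgeR adjusted p = 0.0271), the largest of the 30 rows, and 0.38 without insulin replicate 1 (adjusted p = 0.11).

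eno3 (ENSDARG00000039007, chromosome 23) encodes the enolase that in mammals is the muscle form. Insulin libraries at 4 hpi held 823, 604, 608 and 756 CPM, against 502, 547, 550 and 527 CPM in PBS libraries. All insulin libraries were above all PBS libraries, and replicates 1 and 4 were the high ones. The means of 698 ± 109 CPM in insulin and 532 ± 22.3 CPM in PBS (SD, n = 4 each) gave a log2 change of 0.39 (SE 0.12, edgeR adjusted p = 0.0172).

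tpi1b (ENSDARG00000040988, chromosome 16) encodes triosephosphate isomerase, which turns the triose phosphates into one another. It held 577, 440, 430 and 498 CPM in insulin libraries at 4 hpi and 404, 393, 376 and 416 CPM in PBS libraries, without overlap. The log2 change of 0.29 (SE 0.11) was just inside the threshold, with an edgeR adjusted p of 0.0493. tpi1b passed in 2 of 8 fits that each left out 1 library at 4 hpi and in 6 of 13 other settings. Each other gene that passed did so in 3 to 6 of those 8 fits and in 11 to 12 of those 13 settings. aldoca (ENSDARG00000057661, chromosome 15) encodes an aldolase C, which in mammals is the brain form, and was read at 82 to 167 counts per library. It was at 22.4, 16.1, 15.9 and 17.3 CPM in insulin libraries and at 10.9, 14.1, 11.9 and 14.5 CPM in PBS libraries. These groups also did not overlap, and the log2 change was 0.48 (SE 0.16, edgeR adjusted p = 0.0331).

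ldhba (ENSDARG00000019644, chromosome 4) encodes a B subunit of lactate dehydrogenase, the subunit that in mammals prevails in heart. It was at 887, 608, 584 and 725 CPM in insulin libraries at 4 hpi and at 513, 534, 547 and 561 CPM in PBS libraries. Each insulin library was above each PBS library, and the log2 change was 0.38 (SE 0.13, edgeR adjusted p = 0.0288). ldha, which encodes the A subunit that in mammals prevails in muscle, was at 413, 380, 350 and 348 CPM in insulin and at 436, 397, 373 and 404 CPM in PBS. Those groups overlapped, and its log2 change of -0.11 (SE 0.10) did not pass (adjusted p = 0.404).

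slc2a1b (ENSDARG00000007412, chromosome 6) encodes a glucose transporter of the GLUT1 type. It was at 21.5, 28.3, 30.4 and 26.9 CPM in insulin libraries at 4 hpi and at 37.5, 38.1, 35.5 and 35.3 CPM in PBS libraries. All insulin libraries lay below all PBS libraries, and insulin replicate 1 was the lowest. The means were 26.7 ± 3.81 CPM in insulin and 36.6 ± 1.4 CPM in PBS (SD, n = 4 each), a log2 change of -0.45 (SE 0.15, edgeR adjusted p = 0.0266).

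**Figure D2:**
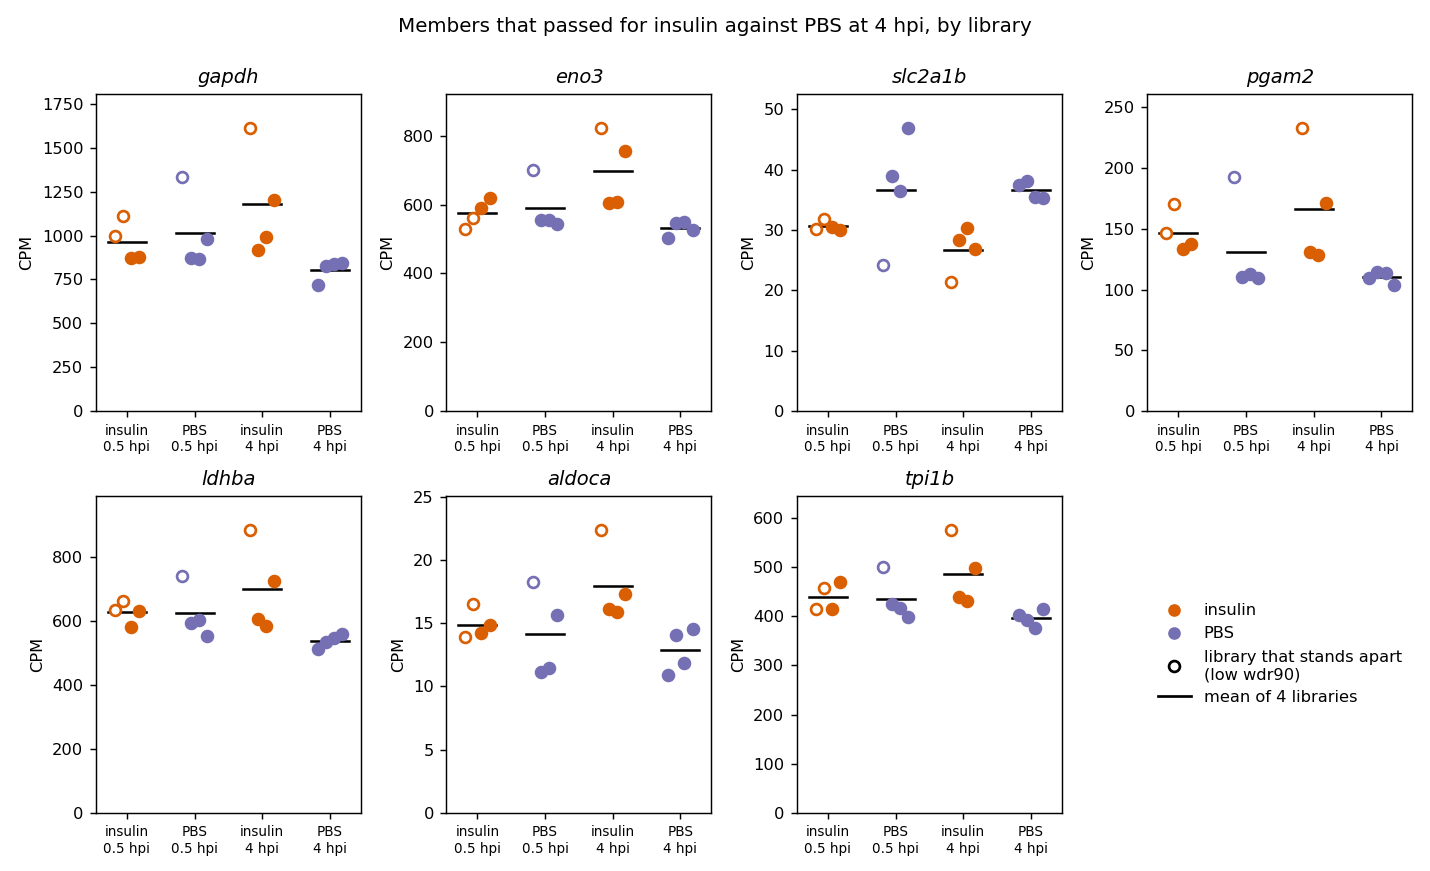
CPM in each of the 16 libraries for the 7 rows that passed at 4 hpi, 1 panel per gene with a linear axis from 0. Points are libraries, open points are those that stand apart, and lines are means of 4. In each panel the insulin libraries at 4 hpi do not overlap the PBS libraries at 4 hpi, and insulin replicate 1 is the most extreme.

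The library that stood apart at 4 hpi, insulin replicate 1, was the highest insulin library for all 6 raised enzymes and the lowest for slc2a1b. With the 4 such libraries left out, all 7 genes passed again in the 12 that remained. Their log2 changes were then 0.37 for gapdh, 0.38 for pgam2, 0.31 for eno3, 0.35 for aldoca, 0.25 for ldhba, 0.20 for tpi1b and -0.35 for slc2a1b, with adjusted p between 0.00128 and 0.0484. gpia, which encodes glucose-6-phosphate isomerase, and slc2a2, of the GLUT2 type that in mammals serves liver and islet, passed there as well. Thus 9 of 30 passed against a background of 35.6%. At 4 hpi these 12 hold the same libraries as the fit without insulin replicate 1 alone, where 0 of 30 rows passed. The change of gapdh was 0.37 in both, with an SE of 0.09 in the 12 and 0.14 in that fit. That of pgam2 was 0.38 in both, with an SE of 0.09 and 0.17. The 2 settings differ only in libraries of the early time. Without insulin replicate 1 the calls thus depended on which early libraries were kept, so the passes in the 12 do not settle them.

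The calls depended on single libraries. Of the 30 rows 0 passed without insulin replicate 1 (22.7% of all genes did), 0 without PBS replicate 1 (22% of all genes) and 1, gapdh, without insulin replicate 4 (23.2%). Leaving out each of the other 5 libraries at 4 hpi gave 4 to 8 rows, against 20.8% to 28% of all genes. Without PBS replicate 1 the 7 genes kept 0.28 to 0.56 in size, with adjusted p from 0.0539 to 0.104. The file headers name a sequencing lane for 9 of the 16 libraries, and 5 of the libraries at 4 hpi share lane 5. Within lane 5, with insulin replicates 1 and 3 against PBS replicates 2 to 4, the log2 changes were 0.63 for gapdh, 0.69 for pgam2 and -0.50 for slc2a1b, with adjusted p of 0.069, 0.0581 and 0.0803, and 0 of 30 rows passed against 13.6% of all genes. The groups of these 7 genes do not overlap at 4 hpi, so leaving out libraries cannot turn their direction.

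**Figure D3:**
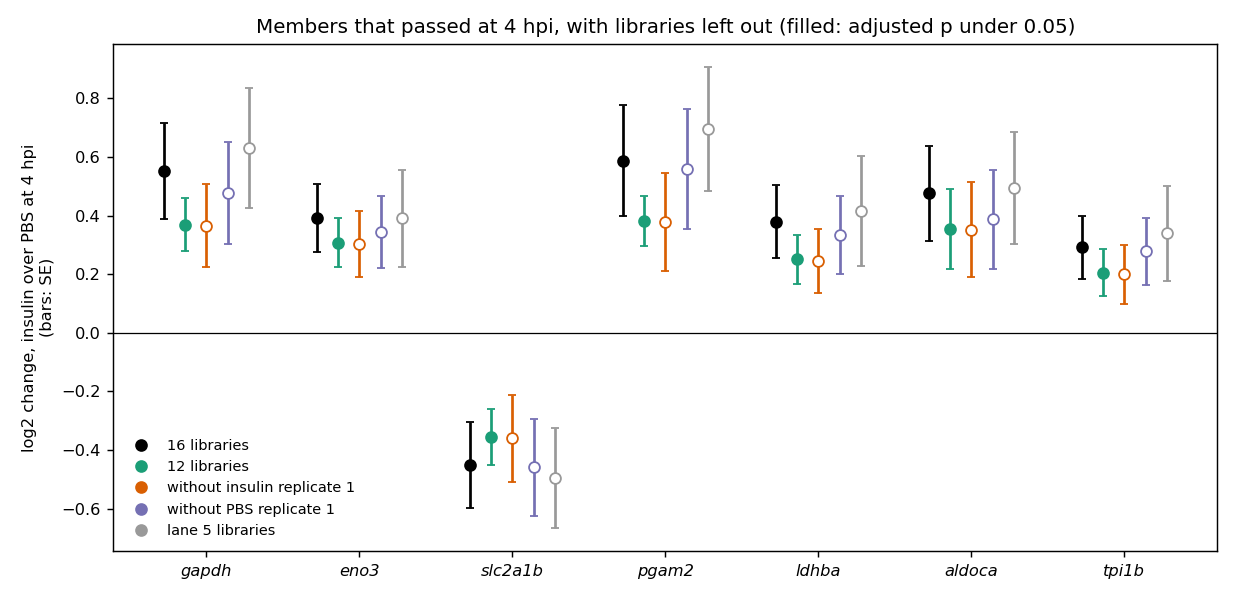
Log2 change of insulin over PBS at 4 hpi for the 7 genes that passed, with all 16 libraries and with libraries left out. Bars are 1 SE, and filled points have an adjusted p under 0.05. The changes are smaller without insulin replicate 1, and of the 5 settings drawn, those with 16 and with 12 libraries have filled points. The setting with 12 libraries and that without insulin replicate 1 hold the same libraries at 4 hpi.

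Among the other rows of the upper reactions, gpia was at 234, 234, 238 and 236 CPM in insulin libraries at 4 hpi and at 189, 198, 194 and 205 CPM in PBS libraries. It was the row nearest to the threshold from outside, with a log2 change of 0.26 (SE 0.10) and an edgeR adjusted p of 0.0581, and its groups did not overlap. gpib, its duplicate, was at 77.9, 47.4, 45.6 and 47.0 CPM in insulin and at 40.7, 41.9, 33.5 and 42.7 CPM in PBS. Its log2 change of 0.46 had an SE of 0.36, and insulin replicate 1 stood far above the rest. Without that library it was at 0.23 (adjusted p = 0.7). The muscle-type phosphofructokinase genes pfkma (0.25, adjusted p = 0.374) and pfkmb (0.10, adjusted p = 0.514) and the platelet-type pfkpa (0.05, adjusted p = 0.782) did not pass. Phosphofructokinase catalyses the committed step of the pathway.

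Aldolase, which splits fructose-1,6-bisphosphate, had 4 rows. Beside aldoca, aldoab had a log2 change of 0.35 (SE 0.14, adjusted p = 0.0717) with insulin at 474 to 752 CPM and PBS at 395 to 467 CPM. Without insulin replicate 1 it was at 0.19 (adjusted p = 0.292). aldoaa was at 0.19 (adjusted p = 0.245) and aldocb at 0.01 (adjusted p = 0.98). tpi1a, the duplicate of tpi1b, was at 0.03 (adjusted p = 0.866).

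In the lower reactions, gapdhs, the second glyceraldehyde-3-phosphate dehydrogenase row, had a log2 change of 0.08 (adjusted p = 0.659) at 660 to 894 CPM in insulin and 684 to 842 CPM in PBS. pgk1, the phosphoglycerate kinase, the first ATP-yielding enzyme, had 0.00 (SE 0.10) at 293 to 409 CPM in insulin and 316 to 343 CPM in PBS. Insulin replicate 1 held the 409 CPM, and the other insulin libraries were at 293 to 315 CPM. Without insulin replicate 1 pgk1 was at -0.12 (edgeR adjusted p = 0.338). The 3 other mutase rows were at 0.19 for pgam1a (adjusted p = 0.136), 0.09 for its second row and 0.11 for pgam1b. The enolase rows eno1a and eno1b were at 0.19 (adjusted p = 0.155) and 0.05 (adjusted p = 0.733). Pyruvate kinase, the last enzyme, was at 0.06 for pkma (adjusted p = 0.764) and 0.37 for pkmb (SE 0.20, adjusted p = 0.166), where insulin replicate 1 held 1028 CPM and the other 7 libraries at 4 hpi held 501 to 666 CPM. Without insulin replicate 1 pkmb was at 0.12 (adjusted p = 0.63).

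The transporters as a group had a median log2 change of -0.2065 over 5 rows, against 0.251 over the 11 rows of the upper reactions and 0.1475 over the 12 of the lower reactions. slc2a3a, of the GLUT3 type, was at 60.6, 66.8, 69.4 and 64.4 CPM in insulin libraries at 4 hpi and at 71.9, 71.7, 71.7 and 86.3 CPM in PBS libraries. Its groups did not overlap, but the change of -0.21 (SE 0.14) did not pass (adjusted p = 0.265). slc2a1a, the duplicate of slc2a1b, was at -0.27 with an SE of 0.33, slc2a12, of the GLUT12 type, at 0.09 (adjusted p = 0.692) and slc2a2 at 0.34 (SE 0.14, adjusted p = 0.0828).

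Counting rows whose 4 insulin libraries did not overlap the 4 PBS libraries at 4 hpi, 10 of 30 had insulin above and 2, slc2a1b and slc2a3a, had it below. The background over all genes was 16.3% above and 17.2% below, 33.5% in all. The 10 rows above were the 6 that passed and gpia, gpib, aldoab and pgam1a.

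The comparison at 0.5 hpi asked whether these genes had already changed soon after the injection. None of the 30 rows passed, against a background of 0.388% of all genes (84 genes), and 0 had an unadjusted p under 0.05 in edgeR, against 13% of all genes. DESeq2 and limma voom also called 0 of the 30, against 2.29% and 0.194% of all genes. The median log2 change was -0.0145, and the changes ran from -0.282 for slc2a3a to 0.224 for the second pgam1a row. gapdh held 994, 1108, 873 and 876 CPM in insulin libraries at 0.5 hpi, against 1333, 872, 869 and 979 CPM in PBS libraries, with a change of -0.07 (SE 0.16). PBS replicate 1, which stands apart, was the highest of these 8 libraries.

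pgk1 was the 1 row whose groups did not overlap at 0.5 hpi, against 6.1% of all genes (3.2% with insulin above and 2.91% below). It was at 308, 312, 280 and 319 CPM in insulin and at 341, 347, 354 and 346 CPM in PBS, a log2 change of -0.19 (SE 0.10, edgeR adjusted p = 0.461). slc2a1b was at 30.2, 31.9, 30.5 and 30.0 CPM in insulin and at 24.2, 39.0, 36.4 and 46.9 CPM in PBS. slc2a3a was at 67.8, 67.3, 66.1 and 74.0 CPM in insulin and at 54.0, 98.4, 88.3 and 94.2 CPM in PBS. In both, PBS replicate 1 was the lowest of the 8 libraries and the other 3 PBS libraries were above all 4 insulin libraries.

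In the 12 libraries without those that stand apart, which leave 2 insulin and 3 PBS libraries at 0.5 hpi, slc2a1b had a log2 change of -0.45 (SE 0.11, edgeR adjusted p = 0.00831) and slc2a3a of -0.44 (SE 0.10, adjusted p = 0.00381). pkmb had -0.44 (SE 0.10, adjusted p = 0.00436), with 491 and 499 CPM in the insulin libraries kept and 642, 651 and 691 CPM in the PBS libraries kept. These 3 of 30 rows were lower in insulin, against a background of 6.65% of all genes lower. Without PBS replicate 1 alone, slc2a1b and slc2a3a passed at -0.41 and -0.44, against 4.79% of all genes called in either direction. In both settings the 3 PBS libraries kept at 0.5 hpi include replicates 2 and 3, which may not be independent pools. The adjusted p treat these replicates as independent, as does every other test that counts both, so they may be too small.

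The effect of insulin at 4 hpi minus that at 0.5 hpi was tested directly, and 0 of 30 rows passed in edgeR, against 9.59% of all genes. At an unadjusted p under 0.05 there were 5 rows, gapdh, eno3, slc2a2, aldoab and ldhba, against 25.9% of all genes. The difference was 0.63 for gapdh (SE 0.23, adjusted p = 0.0916) and 0.43 for eno3 (SE 0.17, adjusted p = 0.11), so their passing at 4 hpi and not at 0.5 hpi is not shown to be a difference between times. For slc2a1b it was -0.20 (SE 0.21, adjusted p = 0.586). DESeq2 called 1 row, eno3, against 11.2% of all genes, and limma voom 0, against 9.7%. In the 12 libraries gapdh had 0.44 (adjusted p = 0.0406) and pkmb 0.56 (adjusted p = 0.00473), 2 rows against 13.4% of all genes.

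The same groups were also compared over time. In PBS embryos, 4 against 0.5 hpi, 0 of 30 rows passed in edgeR, against 13.6% of all genes, and 4 had an unadjusted p under 0.05, against 29.4%. slc2a12 was at 16.9, 17.3, 16.3 and 15 CPM in PBS at 4 hpi and at 13.4, 13.5, 10.1 and 10.9 CPM in PBS at 0.5 hpi, without overlap, a log2 change of 0.45 (SE 0.15, adjusted p = 0.0577). pkma was at 377, 415, 383 and 416 CPM at 4 hpi and at 246, 332, 329 and 336 CPM at 0.5 hpi, also without overlap (0.36, SE 0.13, adjusted p = 0.0742). slc2a2 had a change of -0.39 (SE 0.14, adjusted p = 0.0755) and pkmb of -0.41 (SE 0.20, adjusted p = 0.167). limma voom called 0 rows, against 14.3% of all genes, and DESeq2 1, against 14.9%. In the 12 libraries slc2a12 (0.51) and pkma (0.25) passed above 0 and slc2a3a (-0.32) and pkmb (-0.29) below it, against 19.8% of all genes.

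In insulin embryos, 4 against 0.5 hpi, 0 of 30 rows passed in edgeR, DESeq2 and limma voom, against 2.92%, 4.12% and 2.69% of all genes, and 5 rows had an unadjusted p under 0.05 in edgeR, against 16.9%. tpi1a had the smallest p, with a log2 change of 0.33 (SE 0.13, adjusted p = 0.189). slc2a12 was at 22.0, 18.0, 17.3 and 12.1 CPM in insulin at 4 hpi and at 14.8, 14, 12.2 and 13 CPM in insulin at 0.5 hpi (0.37, adjusted p = 0.221). These comparisons over time share their libraries with the comparisons of insulin and PBS.

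Several rows split by the 4 libraries that stand apart. gpib was at 77.9 to 108 CPM in those 4 and at 33.5 to 47.5 CPM in the other 12. pkmb was at 740 to 1028 CPM against 491 to 691 CPM, and pfkma at 116 to 184 CPM against 87.5 to 116 CPM. In all, 5 of 30 rows (gpib, pfkma, pfkmb, aldoaa and pkmb) were above the other 12 libraries without overlap and 1, pgam1b, was below, against 4.64% of all genes in either direction. For pfkma and aldoaa the nearest libraries almost met, at 115.992 against 115.888 CPM and at 639.3 against 638.8 CPM. pkma ran the other way from pkmb, at 246 to 370 CPM in those 4 libraries and 329 to 454 CPM in the other 12, with overlap. The split was defined from the counts, so these are descriptions with no test.

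**Figure D4:**
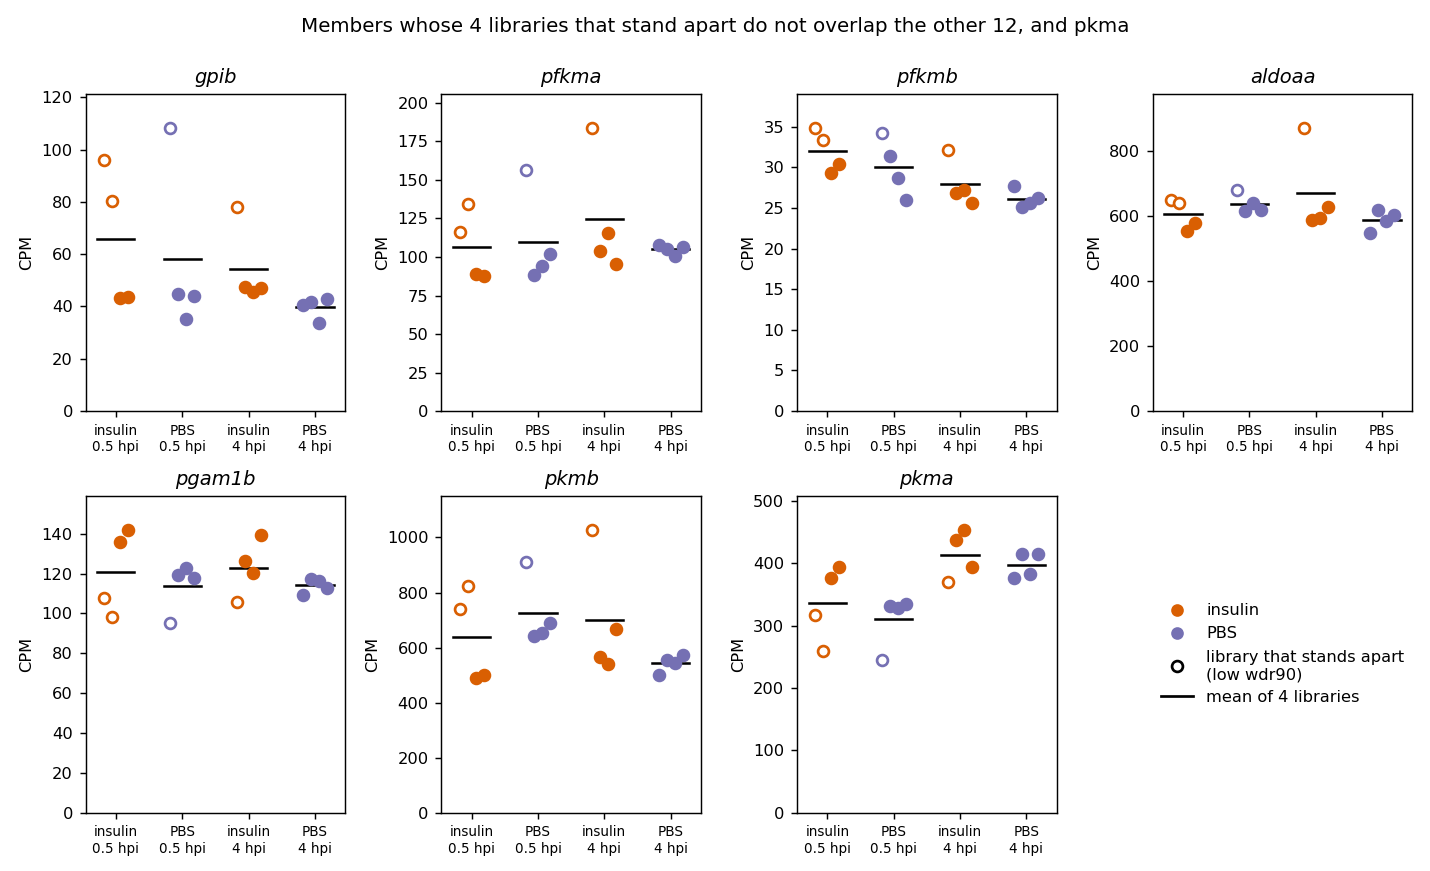
CPM by library for the 6 rows whose 4 libraries that stand apart (open points) do not overlap the other 12 (filled points), and for pkma. Axes are linear from 0 and lines are means of 4 libraries. In gpib the open points lie between 77.9 and 108 CPM, and the filled points of every group are below 50 CPM.

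Ratios within a library compared duplicates and isoforms without regard to scaling. The ratio of ldha to ldhba counts was 0.466 to 0.625 in insulin libraries at 4 hpi and 0.683 to 0.849 in PBS libraries, a log2 difference of -0.47. The ratio of aldoaa to aldoab was 1.126 to 1.25 in insulin and 1.272 to 1.391 in PBS, a log2 difference of -0.16. That of aldoca to aldocb was 0.0315 to 0.0575 in insulin and 0.0258 to 0.0308 in PBS, a log2 difference of 0.47. Each of these 3 had no overlap and a two-sided exact permutation p of 0.0286, the smallest that 4 against 4 libraries allow. Over 11 pairs at 2 times, which make 22 tests, the adjusted p was 0.21 and no ratio passed. A ratio could pass only if many of the 22 tests reached that smallest p together, so the adjusted p cannot decide about a single ratio. Duplicates that share sequence may share reads, and how reads matching both were counted is not given in the sources used here.

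Genes around the pathway were read from lists. Of 8 tested hexokinase and PFKFB rows, which start glycolysis or set the fructose-2,6-bisphosphate that controls phosphofructokinase, 3 were higher in insulin at 4 hpi and 2 lower (edgeR, adjusted p under 0.05). The background was 28.6% of all genes. pfkfb3 was at 24.5 ± 7.59 CPM in insulin and 101 ± 14.8 CPM in PBS at 4 hpi (SD, n = 4 each, log2 change -2.03). It was also higher in PBS at 4 hpi than in PBS at 0.5 hpi (log2 change 1.045, adjusted p = 0.011), while insulin at 4 against 0.5 hpi did not pass (-0.25, adjusted p = 0.686). pfkfb4l had -1.23, and gck, which in mammals is the glucokinase of liver and islet, had 1.96. hkdc1 and pfkfb1 were the other higher rows. Each of these changes is larger than that of any of the 30 rows except that of pfkfb1 (0.53).

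Of the 19 tested rows for pyruvate and lactate, 5 were higher and 1 lower, slc16a3, a lactate exporter. It was at 44.0 ± 5.62 CPM in insulin and 94.3 ± 4.33 CPM in PBS at 4 hpi (SD, n = 4 each, log2 change -1.10). PBS at 4 against 0.5 hpi was higher for it (0.64, adjusted p = 0.00581), and insulin at 4 against 0.5 hpi did not pass (-0.24, adjusted p = 0.425). The higher ones included dlat (0.50) and pdhb (0.48) of the pyruvate dehydrogenase complex. Of 16 glycogen rows, 5 were higher and 0 lower, among them the glycogenin gene gyg1b (0.82) and ugp2b (0.59), which encodes the enzyme that makes UDP-glucose. Of 8 rows of the pentose phosphate pathway, which branches off after the first step, 5 were higher, among them pgls (0.74), and 1 was lower, rpia (-0.40). Shares of these lists stand against the 28.6% of all genes called at 4 hpi.

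Of 11 gluconeogenesis rows, which run the reverse path, 2 were higher at 4 hpi, fbp2 (0.42) and fbp1a (0.39), and 1 was lower, pck1 (-0.80). At 0.5 hpi pck1 was lower as well (-1.05). Of 7 other SLC2 transporters 1 passed, slc2a6 (-1.11), at 1.53 ± 0.513 CPM in insulin and 3.35 ± 0.537 CPM in PBS. Of 19 hypoxia-response rows, a programme that in mammals raises glycolytic genes, 2 were higher at 4 hpi, egln3 (1.90) and p4ha1b (1.16), and 5 were lower, among them igfbp1a (-1.17) and hif1aa (-0.83). igfbp1a was lower at 0.5 hpi too (-1.12). In the 12 libraries 5 hypoxia rows were higher and 5 lower at 4 hpi, and 2 gluconeogenesis rows were higher and 3 lower, against 35.6% of all genes called. With 16 libraries the background was 28.6% of all genes at 4 hpi and 0.388% at 0.5 hpi.

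Glycolytic rows outside the 33 symbols, picked after their values were seen, were pfkpb, with a log2 change of -0.52 at 4 hpi (SE 0.17, edgeR adjusted p = 0.0314), ldhbb (-0.42, adjusted p = 0.0622), eno2 (-0.29, adjusted p = 0.106) and 2 rows labelled PFKL (0.24 and 0.09, adjusted p = 0.1 and 0.584).

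Cell marker lists stand beside these counts. With 16 libraries 28.6% of all genes were called at 4 hpi, 14% higher and 14.6% lower. Of 28 muscle markers 5 were higher in insulin at 4 hpi, among them the actin gene actc1b, and 7 were lower, among them the myosin gene myhz1.1, with a list median of 0.323. Their summed level was 74750 to 109400 CPM in insulin libraries at 4 hpi, highest in replicate 1, and 75870 to 81090 CPM in PBS libraries. Of 21 tested liver markers 3 were higher and 1 lower (median 0.352), at sums of 5280 to 9597 CPM in insulin and 5120 to 5288 CPM in PBS. Of 22 photoreceptor markers 5 were higher and 1 lower (median 0.104), at sums of 5022 to 10090 CPM in insulin and 5950 to 7374 CPM in PBS. Of 18 neuron rows 0 were higher and 1 lower (median -0.0133), at sums of 2937 to 3913 CPM in insulin and 3572 to 3764 CPM in PBS. Of 21 erythroid rows 1 was higher and 3 lower (median 0.0436), at sums of 2017 to 5471 CPM in insulin and 2657 to 3029 CPM in PBS. Insulin replicate 1 had the highest liver and erythroid sums at 4 hpi and the lowest photoreceptor and neuron sums. The other insulin libraries were at 5280 to 6120 CPM for liver and 9628 to 10090 CPM for photoreceptors. They were at 3607 to 3913 CPM for neurons and 2017 to 3002 CPM for erythroid rows. The gene of each list with the highest CPM, not divided by gene length, was also noted. It was actc1b in muscle, apoa2 in liver, rho in photoreceptors, syt1a in neurons and hbae3 in red cells. All 5 were read in every group. In the 12 libraries the markers higher and lower in insulin at 4 hpi were 7 and 9 for muscle (median 0.157), 4 and 1 for liver (0.138), 13 and 1 for photoreceptors (0.301), 5 and 3 for neurons (0.0566) and 2 and 7 for red cells (-0.259), against 35.6% of all genes called. The photoreceptor, neuron and red cell counts thus differ by over 1.5 times from those with 16 libraries, and the median changes sign for neurons and red cells. The part of these cell types in the changes of the 30 rows was not tested.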

How the data were processed

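RNA-seq libraries of whole embryos were analysed from counts deposited by the authors, whole numbers per gene in 1 table per library, on the Zv9 build per the submitters' processing notes. The tools and settings for alignment, annotation and counting, and the strandedness, were not given in the sources used here. In addition, the last line of each table holds size factors, names no gene and was dropped.

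One edgeR 4.0.16 quasi-likelihood model (R 4.3.3, robust, TMM factors, filterByExpr) was fitted to all 21650 genes kept and 16 libraries with 4 groups, leaving 12 residual degrees of freedom. Tests were two-sided. To pass, a gene needed an adjusted p under 0.05 (Benjamini-Hochberg, all tested genes). Levels are CPM over TMM-scaled totals. They are not divided by gene length, so levels of different genes are not compared, except to name the highest CPM in each cell marker list. Ratios within a library used a pseudocount of 0.5 counts. Totals of 6535173 to 9628705 counts limit the precision of low rows.

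The members and lists were chosen with earlier results of these data known. Values in every library were to be given for the members that passed, and list genes were named by smallest p, at most 3 per list and comparison, with genes outside this rule named after their values were seen. Some list genes are not reported here. Alternatives used DESeq2 1.42.0 and limma 3.58.1, other scalings and filters, subsets of libraries, lanes and a replicate block. The lane 5 subset and the ratios were added after seeing the data. Coordinates and sequences were not used.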

Additional observations from a re-analysis of the deposited data

Results flagged for a closer look

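Within each group of 4 libraries, the highest or lowest library was set against Dixon's 95% critical value for every row. Of 120 tests 16 passed it, where chance gives about 1 in 20 if libraries and rows are independent. PBS replicate 1 at 0.5 hpi, a library that stands apart, made 8 of these. It was high for gpib (108.2 CPM), aldoab (692 CPM), pgam2 (192.3 CPM) and eno3 (700.7 CPM), and low for gpia (176.4 CPM), pfkpa (83.77 CPM), aldocb (331 CPM) and pkma (245.7 CPM). Insulin replicate 1 at 4 hpi, which also stands apart, was far above its group for gpib (77.9 CPM) and aldoaa (870.5 CPM). Insulin replicate 2 at 0.5 hpi, which stands apart too, was high for slc2a1a (20.31 CPM).

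In PBS at 4 hpi, replicate 1 was low for gapdh (718 CPM) and aldoab (394.6 CPM), replicate 3 was low for tpi1a (15.84 CPM) and replicate 4 was high for slc2a3a (86.25 CPM). PBS replicate 4 at 0.5 hpi was low for ldha (395.1 CPM).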

How the results depend on the processing

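Each count is of 30 rows (29 with at least 10 CPM in 4 libraries), with the share of all genes in parentheses. At 4 hpi the count was 5 to 9 (20.4% to 35.8%) in 12 of the settings beside the leave-outs, 0 among libraries with no lane in the header (0%) and 0 within lane 5 (13.6%). Leaving out 1 library gave 0 to 8 at 4 hpi (20.8% to 28%), 0 to 2 at 0.5 hpi (0.0462% to 4.79%), 0 to 1 for PBS over time (8.05% to 19.3%) and 0 for the difference (6.65% to 13.6%) and for insulin over time (1.56% to 2.63%). At 0.5 hpi the count was 3 in the 12 libraries (13.1%) and 1 with a term for the library split (2.28%). For the difference between times it was 1 with DESeq2 (11.2%), 2 in the 12 libraries (13.4%) and 3 with the split term (15.9%). For PBS over time it was 2 with library totals (13.7%), 1 with DESeq2 (14.9%), 1 with at least 10 CPM in 4 libraries (18.4%), 2 with the groups compared alone (13.7%), 4 in the 12 libraries (19.8%) and 3 with the split term (15.5%). For insulin over time it was 2 with the split term (5.87%). The cause was not tested. Library totals moved the median of all genes for the difference to -0.103, against 0.00577 with TMM.

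The replicate numbers did not pair the libraries (correlations of deviations from -0.17 to 0.23). With the replicate block 0 rows passed at 0.5 hpi (0.476% of all genes), 7 at 4 hpi (30%), 0 for the difference (10.5%), 0 for insulin over time (3.09%) and 2 for PBS over time (14.8%).

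Depth was lowest for the second pgam1a row, with 34 to 91 counts per library and an SE of 0.26 at 4 hpi.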
